A study of Mus musculus with 6 samples.

Results

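Immediate early genes are switched on within minutes of a signal, from transcription factors already present in the cell and without new protein synthesis. Their products include the AP-1 subunits, bZIP proteins of the FOS and JUN families that pair with each other and bind DNA, the zinc finger factors EGR1 and KLF6, and feedback proteins such as the phosphatase DUSP1, which switches MAP kinases off. In liver they are known to respond to growth factors, cytokines, feeding signals, injury and stress. The set described here held 10 genes, chosen by symbol: Fos, Fosb, Fosl2, Jun, Junb, Jund, Egr1, Ier2, Dusp1 and Klf6. All 10 were found among the 52550 gene identifiers of the count table, and all 10 passed the filter on low counts that left 14031 genes for the test. Ier2 encodes a small nuclear protein, and Dusp1 is the 1 member of the set that encodes no transcriptional regulator.

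Read counts per gene were available for the livers of 6 male mice, 8 weeks old, that had eaten MCD, a diet that lacks methionine and choline, for 1 week. In 3 of them, called TG here, the animals were Slc7a11-LTG mice, and the other 3, called WT, were control mice on the same diet. The labels do not name the promoter behind the transgene or the cells that express it. Values of a group are listed in the order of its replicates 1, 2 and 3. Library totals lay between 16016640 and 17463329 counts. Slc7a11, the xCT subunit of the cystine-glutamate exchanger, had 72729, 24359 and 57242 counts in the TG livers but 46, 44 and 204 in the WT livers, so the groups stood far apart. The hepatocyte marker Alb took 7.1% to 11.3% of the counts of a library, and all 14 hepatocyte markers passed the filter.

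WT replicate 1 stood apart for these genes. It was the lowest of the 6 livers for 10 of the 10 members, against 17.8% of all 14031 genes tested. It lay at least 4-fold below the next lowest liver, on the log2(CPM + 0.5) scale, for 20 genes of the whole table, and 6 of those 20 were members: Fosb, Fos, Egr1, Jun, Klf6 and Ier2. The other livers had 0, 7 and 0 such genes (TG) and 4 and 3 (WT replicates 2 and 3), with 0 members among them. Its depth of 16844376 counts and its 20271 genes with at least 1 count lay within the range of the other livers. The group difference of each member is therefore given with and without that liver, and so is the count of each gene list at an unadjusted p below 0.05.

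The bases just before the transcription start are shown for 4 of the 10 members. Cyclic AMP and growth factor signals are known to reach immediate early genes through short elements there. The 4 are not the members with the largest drops in WT replicate 1. Sequences are RefSeq promoter windows of build GRCm38.p6, printed 5′ to 3′ on the gene's strand. Windows were searched for 8 of the 10 members, and Egr1 and Ier2 were not searched. Each window ran from 250 bases before the start to 50 bases after it. Capitals mark the cyclic AMP response element TGACGTCA, its shorter core TGACG, the related element TGACATCA and the TATA motif TATAAA, each searched on both strands. TGACGTCA holds the core TGACG on each strand, and TGACATCA does not.
Fos, chr12:85473740-85473889, plus strand: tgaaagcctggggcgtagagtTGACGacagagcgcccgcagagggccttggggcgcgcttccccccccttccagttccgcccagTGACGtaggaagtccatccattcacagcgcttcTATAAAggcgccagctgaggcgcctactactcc
Jun, chr4:95052223-95052372, minus strand: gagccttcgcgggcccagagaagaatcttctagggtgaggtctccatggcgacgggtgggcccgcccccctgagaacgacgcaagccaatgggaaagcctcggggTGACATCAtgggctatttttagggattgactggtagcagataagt
Dusp1, chr17:26508523-26508622, minus strand: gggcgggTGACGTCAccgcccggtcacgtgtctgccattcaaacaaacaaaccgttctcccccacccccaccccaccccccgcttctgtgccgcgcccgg
Klf6, chr13:5861339-5861438, plus strand: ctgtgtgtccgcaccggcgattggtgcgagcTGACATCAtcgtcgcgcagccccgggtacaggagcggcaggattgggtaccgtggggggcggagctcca

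The Fos and Jun stretches cover the 150 bases before the start, and those of Dusp1 and Klf6 run from 150 to 51 bases before it. The full element TGACGTCA began 143 bases before the start of Dusp1 and was present in 1.79% of all 32851 windows of 300 bases. TGACATCA began 45 bases before the start of Jun and 119 bases before that of Klf6, and 3.62% of all windows held it. The core TGACG was found in 4 of the 8 member windows (Fos, Fosb, Junb and Dusp1), and in none of the Jun and Klf6 windows, against 20.8% of all windows. The CArG box, bound by serum response factor, was found in 0 of the 8 windows and in 1.63% of all, and the AP-1 site TGACTCA in 0 of the 8 and in 5.2% of all. A match describes letters in the window and does not show a bound site. The search did not cover Egr1, Ier2 or sites more than 250 bases before a start, so the absence of a motif holds for these windows only.

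The FOS family provides the AP-1 partners that must pair with a JUN protein. Fos (ENSMUSG00000021250) lies on chromosome 12 of build mm10, at 85473890 to 85477273 of the plus strand. Its counts were 5114, 7136 and 5571 for the TG livers, against 48, 4202 and 3393 for the WT livers. After scaling by trimmed mean of M values (TMM), the TG levels were 311, 403 and 283 CPM, where CPM is counts scaled to a common library size, and the WT levels were 3.05, 318 and 176 CPM. WT replicate 2 lay inside the TG range, so the groups overlapped, and WT replicate 1 was 57.9-fold below the next lowest liver (95% interval 43.6 to 78.7, exact, for counting error only). The log2 fold change of TG against WT was 1.0 with a standard error (SE) of 1.13 and an adjusted p of 0.789 by edgeR's quasi-likelihood test with Benjamini-Hochberg adjustment. Without WT replicate 1 it was 0.42 (SE 0.35, adjusted p 0.691 by edgeR).

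Fosb (ENSMUSG00000003545, chromosome 7, 19302696 to 19310051, minus strand), whose product is close to FOS, varied most. The TG livers held 71.4, 175 and 120 CPM and the WT livers 0.19, 346 and 163 CPM. The lowest of these values rested on 3 counts, 375-fold below the next lowest liver with a 95% counting interval of 128 to 1820. WT replicates 2 and 3 lay above TG replicates 1 and 3, and TG replicate 2 lay between them. The log2 fold change was -0.47 (SE 1.43, adjusted p 0.929 by edgeR) with all livers and -1.06 (SE 0.47, adjusted p 0.525) without WT replicate 1, where the unadjusted p was 0.0624.

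Fosl2 (ENSMUSG00000029135, chromosome 5, 32135801 to 32157842, plus strand) encodes FRA2, a FOS relative that lacks the strong activation domain of FOS. It had TG levels of 53.7, 60.7 and 49.2 CPM beside WT levels of 19.8, 40.9 and 36.3 CPM. All 3 TG livers lay above all 3 WT livers, also when WT replicate 1 was set aside. Means were 54.5 ± 5.78 CPM for TG and 32.3 ± 11.1 CPM for WT (SD, n = 3 per group), which gave a log2 fold change of 0.76 (SE 0.27). The unadjusted p was 0.0248 and the adjusted p 0.386 by edgeR, so the difference did not pass the threshold of 0.05. Without WT replicate 1 the log2 fold change was 0.5 (SE 0.18, adjusted p 0.521 by edgeR, unadjusted 0.0298).

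**Figure D1:**
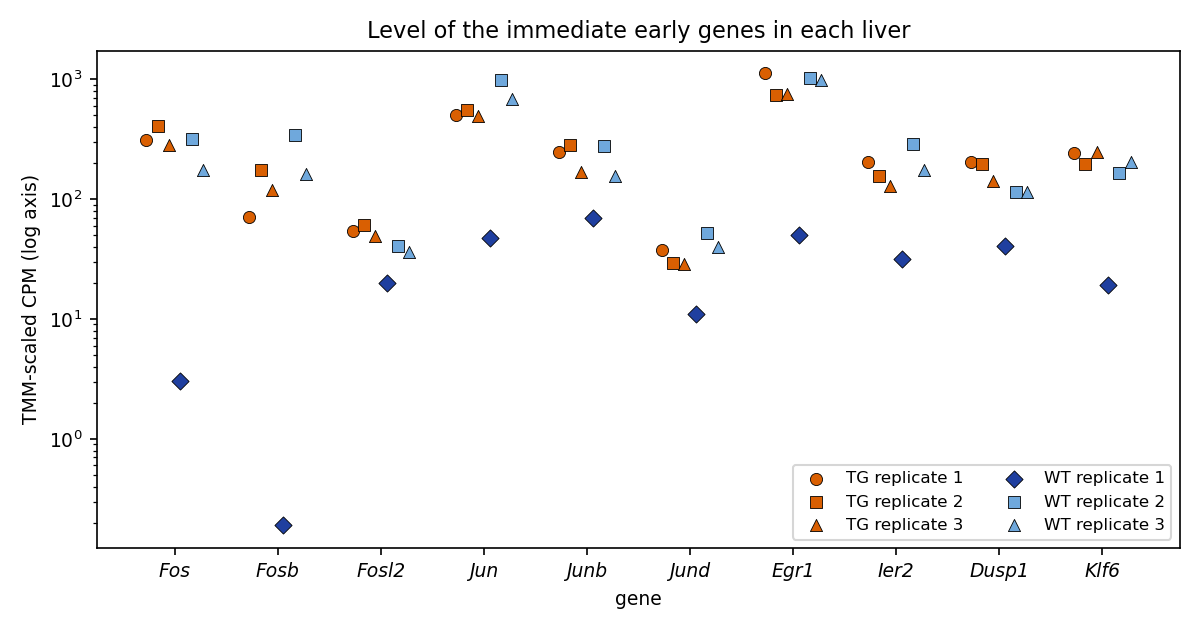
Level of each of the 10 genes in each liver, in TMM-scaled CPM on a log axis, with 1 symbol per liver, orange for TG and blue for WT. WT replicate 1, in dark blue, was the lowest liver for every gene, from 0.19 CPM for Fosb to 69.2 CPM for Junb.

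The JUN family supplies the partners of FOS proteins and can also form dimers of its own. Jun (ENSMUSG00000052684, chromosome 4, 95049034 to 95052222, minus strand) had TG levels of 507, 549 and 490 CPM, with a coefficient of variation of 5.82%. Its WT levels were 47.4, 977 and 683 CPM. The TG livers thus fell in the gap between WT replicate 1 and the other two WT livers. Its log2 fold change was -0.14 (SE 0.84, adjusted p 0.969 by edgeR), and -0.69 (SE 0.31, adjusted p 0.525 by edgeR, unadjusted 0.0663) without WT replicate 1.

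Junb (ENSMUSG00000052837, chromosome 8, 84974484 to 84978718, minus strand) encodes a JUN relative that often restrains JUN. It had TG levels of 245, 280 and 167 CPM beside WT levels of 69.2, 277 and 157 CPM. TG replicate 3 and WT replicate 3 were near each other, and so were TG replicate 2 and WT replicate 2. For Junb the log2 fold change was 0.46 (SE 0.48, adjusted p 0.763 by edgeR) and 0.09 (SE 0.36, adjusted p 0.947 by edgeR) without WT replicate 1.

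Jund (ENSMUSG00000071076, chromosome 8, 70698949 to 70700616, plus strand), known as the most constantly expressed JUN gene, had TG levels of 37.4, 29.5 and 28.8 CPM. Its WT levels were 11.1, 51.9 and 39.8 CPM. As for Jun, WT replicates 2 and 3 lay above all TG livers and WT replicate 1 below them. The log2 fold change was -0.1 (SE 0.48, adjusted p 0.959 by edgeR) and -0.52 (SE 0.21, adjusted p 0.521 by edgeR, unadjusted 0.0436) without WT replicate 1. Jun overlaps the antisense gene Junos, Jund the antisense gene Gm11175, and Junb the peroxiredoxin gene Prdx2 on the opposite strand. The labels do not state whether the counting used strand, so reads of these partners cannot be told apart from those of the members.

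Per kilobase of annotated exon, the 6 AP-1 genes summed to 437, 517 and 388 CPM per kilobase in the TG livers, against 55, 653 and 411 in the WT livers. Jun gave the largest share of this sum in 5 livers, from 33.3% in TG replicate 2 to 52.1% in WT replicate 3, and Junb gave the largest share, 54.7%, in WT replicate 1. Fos gave 30.2%, 33.1% and 31.0% of it in TG livers but 2.36%, 20.7% and 18.3% in WT livers. The Fos shares of the 3 TG livers lay above those of all 3 WT livers, and the Jun shares of the TG livers lay between that of WT replicate 1 (27.0%) and those of WT replicates 2 and 3 (46.9% and 52.1%).

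The ratio of the Fos level to the Jun level per kilobase, which does not depend on the scaling of libraries, was 0.831, 0.997 and 0.782 for TG. For WT it was 0.0872, 0.441 and 0.35, so that the groups did not overlap with or without WT replicate 1. An exact permutation test of 3 against 3 livers cannot give a two-sided p below 0.1, and none is claimed for this ratio. Of the 45 ratios between members, 8 had groups that did not overlap, and 4 of these set Fos over Jun, Junb, Jund or Ier2, with higher values in TG. The other 4 were Jund over Egr1, Dusp1 or Klf6 and Ier2 over Klf6, with lower values in TG. Without WT replicate 1, 24 of the 45 did not overlap, but groups come apart more easily when a liver is left out. With all livers, 15.4% of single genes had groups that did not overlap. With WT replicate 1 left out, 14.2% of single genes did not overlap on the higher side and 12.9% on the lower side. The ratios share members, and no count over ratios of other genes was made. Nothing particular to these genes is therefore read from the 8 or the 24. The ratio of Fosb to Fos per kilobase was 0.0866, 0.164 and 0.16 for TG. For WT it was 0.0235, 0.41 and 0.349, so WT replicate 1 lay below all TG livers and the other WT livers above them.

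**Figure D2:**
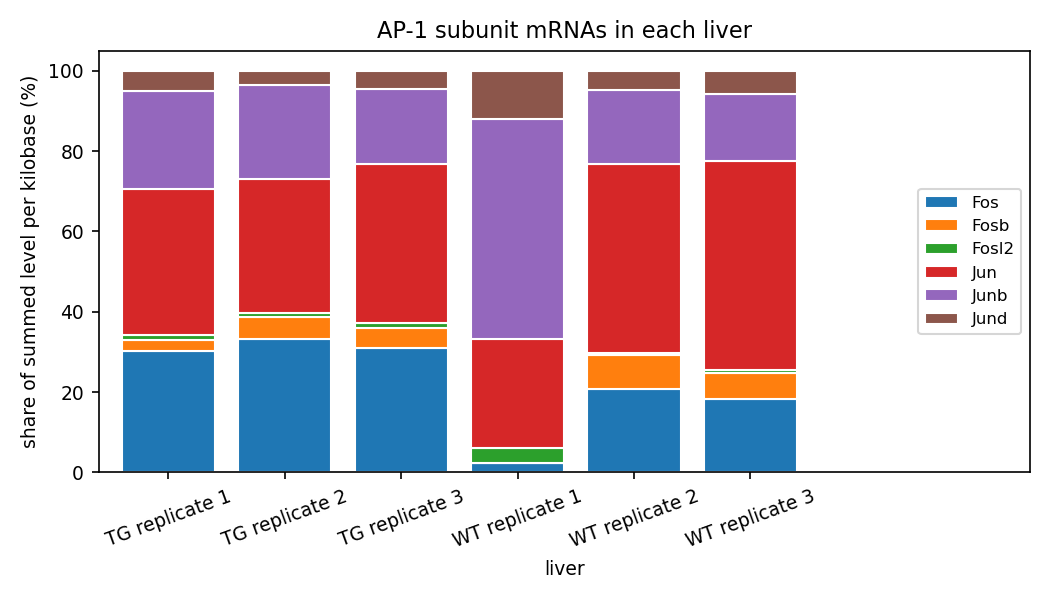
Share of each AP-1 subunit gene in the summed AP-1 level per kilobase of exon, in percent, for each of the 6 livers. Fos (blue) took 30.2% to 33.1% in TG livers, and in WT replicate 1 Junb (purple) took 54.7%.

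Egr1 (ENSMUSG00000038418, chromosome 18, 34859823 to 34864984, plus strand), a zinc finger factor induced by growth factors through serum response factor, had the highest mean level per kilobase of the members in TG livers, at 194 CPM per kilobase. In TG replicate 2, Jun (172) and Fos (171) lay above its 166 CPM per kilobase. It had TG levels of 1119, 743 and 746 CPM beside WT levels of 49.7, 1025 and 986 CPM. WT replicates 2 and 3 lay inside the TG range. The log2 fold change was 0.34 (SE 0.88, adjusted p 0.915 by edgeR), and without WT replicate 1 its sign turned, to -0.21 (SE 0.35, adjusted p 0.857 by edgeR).

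Klf6 (ENSMUSG00000000078, chromosome 13, 5861482 to 5870394, plus strand), a Krüppel-like factor, had TG levels of 241, 195 and 248 CPM. Its WT levels were 19.4, 164 and 204 CPM, with WT replicate 3 just above TG replicate 2. Klf6 had a log2 fold change of 0.82 (SE 0.7, adjusted p 0.712 by edgeR) and 0.31 (SE 0.25, adjusted p 0.682 by edgeR) without WT replicate 1. Ier2 (ENSMUSG00000053560, chromosome 8, 84661331 to 84662852, minus strand) had TG levels of 202, 156 and 128 CPM beside WT levels of 31.4, 288 and 175 CPM. Its groups overlapped, with a log2 fold change of -0.02 (SE 0.66, adjusted p 0.993 by edgeR) and of -0.52 (SE 0.32, adjusted p 0.607 by edgeR) without WT replicate 1.

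Dusp1 (ENSMUSG00000024190, chromosome 17, 26505590 to 26562128, minus strand) encodes a nuclear phosphatase that inactivates p38, JNK and ERK kinases. It had TG levels of 203, 196 and 140 CPM beside WT levels of 40.5, 115 and 115 CPM. As for Fosl2, all 3 TG livers lay above all 3 WT livers. Means were 180 ± 34.2 CPM for TG and 90.0 ± 42.8 CPM for WT (SD, n = 3 per group), which gave a log2 fold change of 1.0 (SE 0.4, adjusted p 0.421 by edgeR, unadjusted 0.0392). Without WT replicate 1 it was 0.65 (SE 0.25, adjusted p 0.521 by edgeR, unadjusted 0.0397). The annotated span of Dusp1 overlaps Ergic1 on the opposite strand and 3 further annotated features, so part of its counts may be theirs.

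By edgeR, 0 of the 10 members passed an adjusted p of 0.05, as did 0% of all 14031 genes tested. Slc7a11 was thus not called either, although its lowest TG liver lay 130-fold above its highest WT liver. A lack of adjusted calls in this fit therefore does not show that a gene was unchanged. DESeq2 called 0 members and 2.71% of the genes to which it gave an adjusted p, and limma voom called 0 members and 0.00713% of genes. At an unadjusted p below 0.05, edgeR gave 2 members, Fosl2 and Dusp1, both higher in TG, where 8.68% of all genes were higher and 2.37% lower at that level. The same 2 were the members whose groups did not overlap, against 9.22% of all genes with every TG liver above every WT liver. In 0 members did every TG liver lie below every WT liver, against 6.14% of all genes. At the share of the whole table, about 1 of 10 genes would be higher at that level. The median log2 fold change of the members was 0.4, against -0.03 for all genes, and without WT replicate 1 it was -0.06. Without that liver, Jund joined Fosl2 and Dusp1 at an unadjusted p below 0.05, on the lower side, where 6.99% of all genes were higher and 2.53% lower. The groups of Fosl2 and Dusp1 then still did not overlap, on the higher side as for 14.2% of all genes, and those of Jun and Jund did not overlap on the lower side, as for 12.9%. The 2 unadjusted calls became 0 without TG replicate 1 and 0 without TG replicate 2. The fold changes of Fosb, Jun, Jund and Ier2, negative in edgeR, were positive in limma voom, at 2.33, 0.69, 0.16 and 0.44 on the log2 scale.

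**Figure D3:**
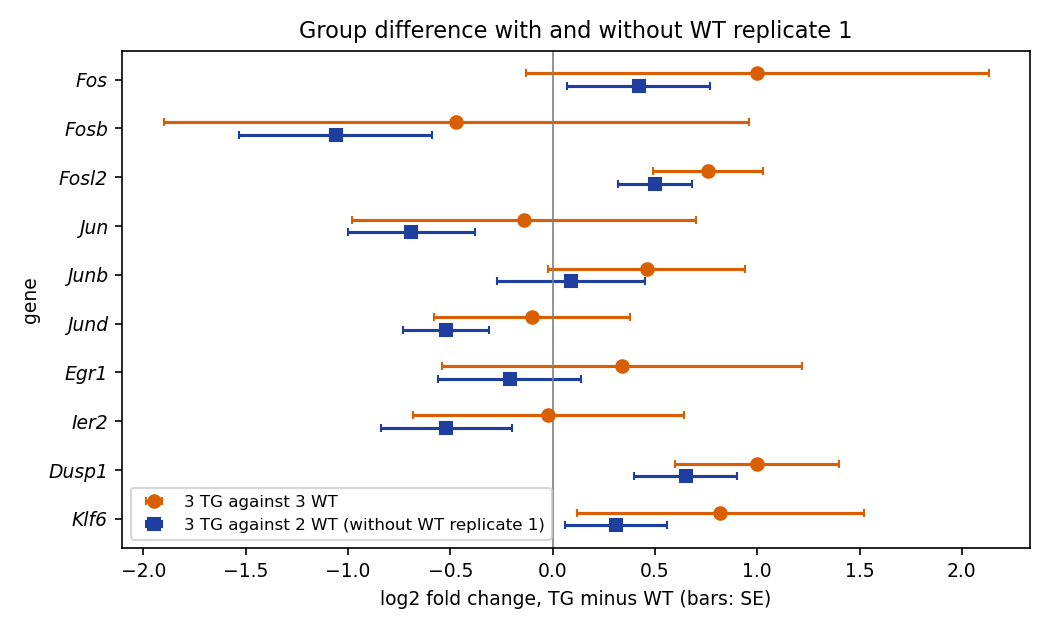
Log2 fold change of each gene, TG minus WT, with bars of 1 SE, for all 6 livers (orange) and without WT replicate 1 (blue). Without that liver the estimates were lower for all 10 genes, and that of Egr1 moved from 0.34 to -0.21.

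The replicates of the groups differed in spread. On the log2(CPM + 0.5) scale the median SD of the members was 1.76 among WT livers and 0.28 among TG livers, against 0.32 and 0.24 for all genes tested. Of the 10 members, 8 were among the 5% of genes with the largest SD in WT livers, and 0 were in TG livers. Without WT replicate 1, the ratio of the highest to the lowest liver lay between 1.51 for Egr1 and 4.84 for Fosb, and with it the same ratio lay between 3.06 for Fosl2 and 1810 for Fosb. The size of the drop in WT replicate 1 differed among members. It was largest for Fosb and Fos, 14.9-fold below the next lowest liver for Egr1 (13.9 to 16.1, 95% counting interval) and 10.4-fold for Jun (9.61 to 11.2). It was 2.26-fold for Junb (2.11 to 2.43) and 1.83-fold for Fosl2 (1.6 to 2.1), the smallest drops of the set.

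The same liver was low for other immediate early genes. Of 45 such genes listed beside the members, 40 were tested, and 24 of the 40 (60%) had their lowest value in WT replicate 1. Egr2, Ccn1 and Gadd45a lay at least 4-fold below the next lowest liver there. Ccn1, a matrix protein gene, lay at 9.52 CPM in WT replicate 1 and between 65.7 and 209 CPM in the other livers. Egr2, a relative of Egr1, lay at 0.19 CPM there, a value that rests on 3 counts, and between 5.09 and 13.2 CPM in the other livers. Btg2, an antiproliferative gene, lay at 72.8 CPM against 181 to 645 CPM elsewhere. Not all genes of the class followed: Klf2, Id1, Hes1 and Btg1, chosen after their values were seen, had their lowest value in another liver, and 16 of the 40 did in all. Nr4a1, an orphan nuclear receptor, was low in both WT replicate 1 (8.57 CPM) and WT replicate 3 (17.6 CPM) and at 399 CPM in WT replicate 2.

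**Figure D4:**
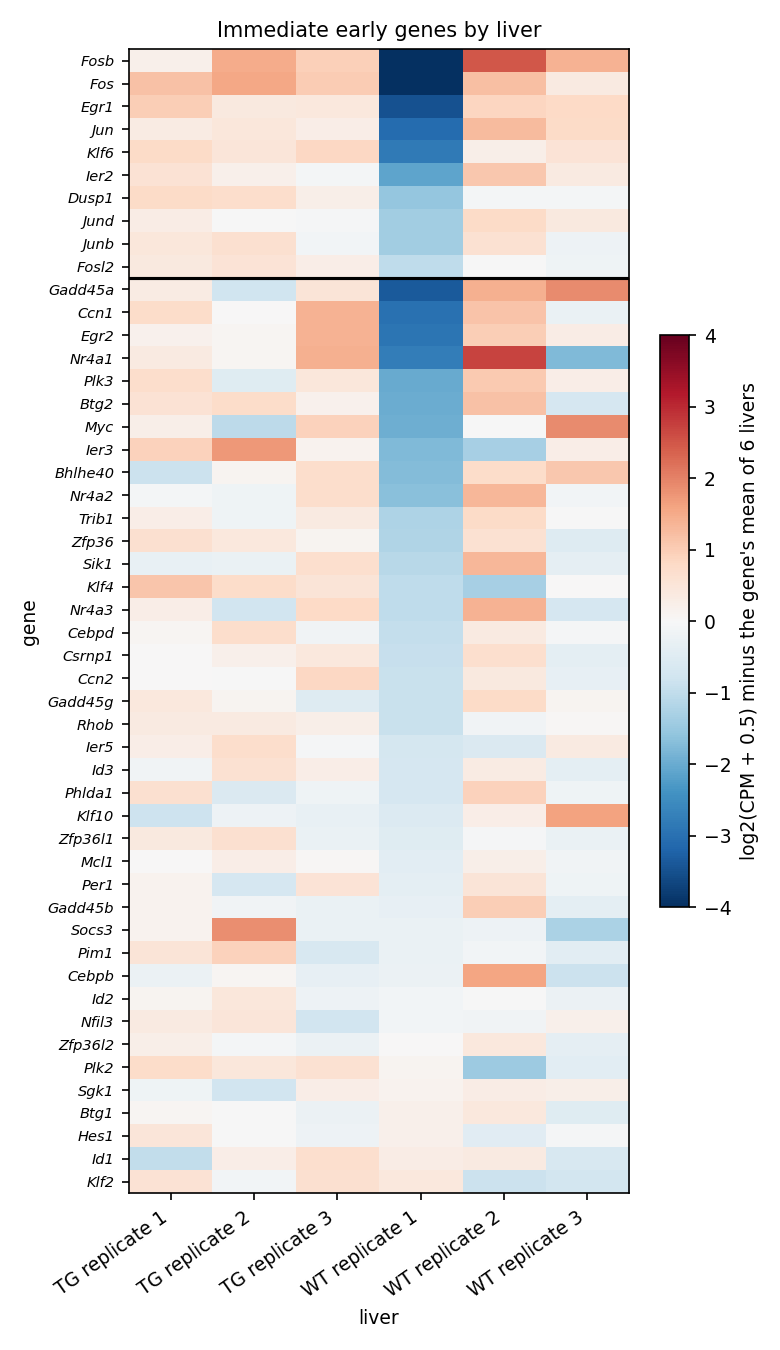
Colour map of log2(CPM + 0.5) minus each gene's mean of the 6 livers, for the 10 genes (above the line) and the 40 other tested immediate early genes (below it), sorted by WT replicate 1, with colours capped at the ends of the scale. The column of WT replicate 1 is blue for all 10 genes and was the lowest of the row for 24 of the 40 others.

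Between TG and WT livers, 0 of the 40 other immediate early genes passed the adjusted threshold, and 5 had an unadjusted p below 0.05, all higher in TG, where 8.68% of all genes were. The count without WT replicate 1 was 3 higher and 2 lower, against 6.99% and 2.53% of all genes. Ier3, Rhob and Socs3 were lost, Klf2 came in on the higher side, and Klf10 and Gadd45a on the lower side. Klf4, a Krüppel-like factor, lay at 8.09 ± 1.84 CPM in TG against 2.59 ± 1.60 CPM in WT (SD, n = 3 per group), with an adjusted p of 0.343 by edgeR. Plk2, a kinase gene, lay at 21.2 ± 2.14 against 9.95 ± 5.09 CPM, and Rhob, which encodes a small GTPase, at 77.9 ± 3.93 against 51.1 ± 16 CPM. In these 3 genes all TG livers lay above all WT livers. Ier3, a survival gene, had overlapping groups, with TG levels of 17.2, 30.9 and 9.8 CPM beside WT levels of 2.29, 3.25 and 10.9 CPM. The median log2 fold change of the 40 genes was 0.17, and -0.01 without WT replicate 1.

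Among 13 other bZIP genes, 0 passed the adjusted threshold, 3 were higher and 0 lower at an unadjusted p below 0.05, and 4 were lowest in WT replicate 1. Over all genes, 8.68% were higher and 2.37% lower at that level. Leaving out WT replicate 1 left 1 higher, Maf, and 0 lower, against 6.99% and 2.53% of all genes. Atf3, which encodes a stress-induced partner of JUN, had TG levels of 126, 94.7 and 186 CPM. Its WT levels were 3.17, 207 and 232 CPM. Maff, a small MAF protein gene, had TG levels of 36.3, 22.0 and 57.0 CPM beside WT levels of 3.75, 121 and 49.6 CPM. The 3 higher genes were Maf (49.4 ± 10.3 against 32.6 ± 5.97 CPM), Jdp2, a repressor of AP-1 (7.16 ± 3.28 against 3.07 ± 0.948 CPM), and Batf3 (3.30 ± 1.69 against 1.33 ± 0.519 CPM). The low values of WT replicate 1 thus extended to Atf3 and Maff, whereas the factors Atf2 and Mafg lay within 33.3 to 38.1 CPM and 116 to 166 CPM over all 6 livers.

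Kinases and factors that act before these genes were counted in the same way. Of 24 genes of the MAP kinase cascade, 4 (16.7%) were lowest in WT replicate 1, near the 17.8% of all genes, and 0 lay 4-fold below the next liver there. Of 12 genes for serum response factor, its ternary complex partners and CREB, 3 were. Srf itself lay at 15.8 CPM in WT replicate 1, 54.8 and 28.2 CPM in WT replicates 2 and 3, and 27.8 to 41.3 CPM in TG livers. In the MAP kinase cascade 0 genes passed the adjusted threshold by edgeR. At an unadjusted p below 0.05, 2 were higher and 1 lower in TG, where 8.68% of all genes were higher and 2.37% lower. The cascade genes at that level were Map3k1 (40.3 ± 16.2 against 21.2 ± 1.30 CPM, SD, n = 3 each), Nras (31.5 ± 3.72 against 23.8 ± 1.70 CPM) and, on the lower side, Map2k6 (4.98 ± 4.01 against 15.3 ± 7.98 CPM). Mrtfa, a cofactor of serum response factor, was the 1 gene of the 12 at that level, at 18.2 ± 4.12 against 11 ± 3.48 CPM, and without WT replicate 1 the count was 0. In the MAP kinase cascade that count was 2 higher and 2 lower, with Map2k3 added on the lower side. Without that liver, 6.99% of all genes were higher and 2.53% lower.

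Feedback inhibitors of MAP kinases, many of them induced by the same signals, were also often lowest in WT replicate 1. Of 16 such genes, 10 (62.5%) had their lowest value there. Dusp6, an ERK phosphatase, lay at 42.3 CPM in WT replicate 1 and between 179 and 317 CPM in the other livers, and Dusp8 at 1.02 CPM against 9.91 to 21.5 CPM. Between groups 0 passed the adjusted threshold by edgeR, and Dusp2, Dusp5 and Spred2 were higher in TG at an unadjusted p below 0.05. Of all genes, 8.68% were higher and 2.37% lower at that level, and 6.99% and 2.53% without WT replicate 1. When that liver was left out, Dusp5 and Spred2 were lost and Dusp16 came in on the lower side, which left 1 higher and 1 lower. Dusp5 lay at 11.4 ± 2.83 CPM in TG, against 5.19 ± 3.43 CPM in WT. Heat shock genes, a separate stress response, had 8 of 15 members lowest in WT replicate 1 but 0 by 4-fold. Hspb1 was the 1 heat shock gene at an unadjusted p below 0.05, at 35.3 ± 11.2 CPM in TG against 16.4 ± 3.47 CPM in WT livers. It was at that level without WT replicate 1 too, where Hsph1 and Dnajb4 came in on the lower side.

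**Figure D5:**
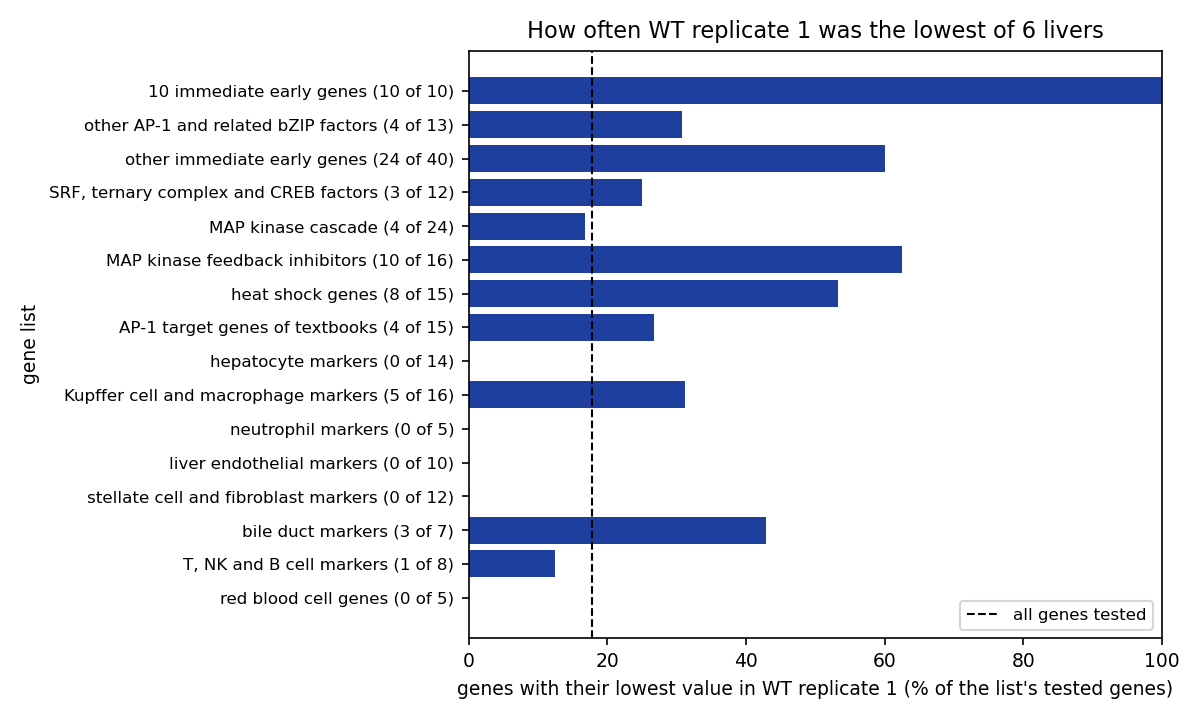
Percent of the tested genes of each list whose lowest value among 6 livers lay in WT replicate 1, with the number of genes in parentheses. The dashed line marks 17.8%, the value over all 14031 genes, and the bars of the 10 immediate early genes (100%), the MAP kinase feedback inhibitors (62.5%) and the other immediate early genes (60%) were the longest.

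Profiles over the 6 livers were compared by the root mean square difference of log2(CPM + 0.5) centred on each gene's mean, over 9996 other genes with a mean of at least 5 CPM. Among the nearest to Fos were Gdf15 (0.8), a stress-induced secreted factor, Atf3 (0.82), Gm42047 (1.15) and Ccn1 (1.18). Gdf15 had TG levels of 314, 196 and 220 CPM beside WT levels of 9.65, 254 and 251 CPM. Nearest to Jun were Pdk4 (0.4), a kinase of pyruvate dehydrogenase, Gdf15 (0.5), Egr2 (0.53), Maff (0.53) and Dusp6 (0.54). Pdk4 had TG levels of 1198, 784 and 515 CPM beside WT levels of 77.4, 1656 and 731 CPM. Nearest to Junb were Gbp3 (0.2), Zfp36 (0.21), Ifit3 (0.22), Cebpd (0.26) and Epha2 (0.28). Among the members, Fosl2 and Dusp1 were the closest pair, at 0.27, and Fosb and Fosl2 the farthest, at 2.58.

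Of 20 genes often named as AP-1 targets, 15 were tested, 0 passed the adjusted threshold, and 9 were higher and 0 lower in TG at an unadjusted p below 0.05. At that level, 8.68% of all genes were higher and 2.37% lower. Of the 9, 7 were at that level without WT replicate 1, all higher. Without that liver, 6.99% of all genes were higher and 2.53% lower. The median log2 fold change of the 15 genes was 1.78, and 1.55 without that liver. Lgals3, which encodes galectin 3, had TG levels of 59.9, 55.3 and 69.3 CPM beside WT levels of 9.78, 7.49 and 25.6 CPM. Cd44, an adhesion receptor, lay at 62.7, 77.6 and 19.3 against 10.9, 9.15 and 16.3 CPM, and the cell cycle inhibitor Cdkn1a at 91.0, 87.4 and 45.9 against 27.0, 8.85 and 29.2 CPM. Il1b, a cytokine, lay at 42.6, 50.1 and 7.16 against 3.81, 7.72 and 5.04 CPM. In WT replicate 1, 4 of the 15 (26.7%) had their lowest value, and 0 by 4-fold.

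Many of those target genes are also expressed by myeloid cells, whose markers were high in TG replicates 1 and 2. All 16 macrophage markers were tested, and their summed level was 2579.6, 4437.5 and 780 CPM in TG replicates 1 to 3 and 555, 466 and 787 CPM in WT replicates 1 to 3. TG replicate 3 thus lay near the WT livers. By edgeR 0 of the 16 passed the adjusted threshold. All 16 were higher at an unadjusted p below 0.05 (13 without WT replicate 1), where 8.68% of all genes were (6.99% without that liver). In 5 of the 16 every TG liver lay above every WT liver, against 9.22% of all genes. None of the 16 was at 0 in any liver. Clec4f, which marks Kupffer cells, had TG levels of 300, 455 and 120 CPM beside WT levels of 82.4, 94.4 and 130 CPM. Adgre1 and Cd68, which mark macrophages more widely, had mean levels of 88.8 ± 71.6 and 39.5 ± 13.1 CPM in TG, against 18.1 ± 9.14 and 11.6 ± 2.99 CPM in WT. Of 12 neutrophil markers 5 were tested, with sums of 69.3, 116 and 5.43 CPM in TG and 7.56, 2.8 and 5.2 CPM in WT. S100a8 and S100a9 had counts in every liver, but S100a8 lay at 0.102 CPM in TG replicate 3 and 0.151 CPM in WT replicate 2, at or below the level that 3 counts give. Of 12 stellate cell and fibroblast markers, 7 had every TG liver above every WT liver, against 9.22% of all genes. By edgeR 0 of the 12 passed the adjusted threshold. At an unadjusted p below 0.05, 5 were higher and 0 lower, also without WT replicate 1. Of 10 endothelial markers, 3 had every TG liver above every WT liver, and 2 were higher at that level (3 without WT replicate 1). In bulk tissue, fewer cells of a type and less RNA per cell cannot be told apart. The part of these cells in the levels of Fosl2, Dusp1 and the target genes was not tested. In WT replicate 1 the macrophage sum of 555 CPM lay between those of the other WT livers, and 5 of the 16 markers (31.2%) had their lowest value there. Of the other cell type lists, 3 of 7 bile duct markers (42.9%) and 1 of 8 T, NK and B cell markers were lowest there, and 0 of the 14 hepatocyte, 5 neutrophil, 10 endothelial, 12 stellate cell and 5 red blood cell genes tested. The part of these cells in the low levels of WT replicate 1 was not tested.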

How the data were processed

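Liver RNA was sequenced from 3 TG and 3 WT mice. Per the labels' protocols, RNA came from flash-frozen tissue by Trizol extraction, and a VAHTS Universal V6 kit was used for the libraries. TopHat, Cufflinks and build mm10 appear in the submitters' processing notes. Counting program, annotation and strand setting were not given in the sources used here. Raw counts of reads for each Ensembl identifier were deposited by the authors, without normalization. Symbols came from a gene name table that matched 52403 identifiers, with 147 unmatched. Coordinates and exon lengths came from GENCODE for the same mouse build. Levels per kilobase use the union of annotated exons.

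Genes were filtered with filterByExpr by group and tested with edgeR 4.0.16 (R 4.3.3, TMM, robust quasi-likelihood, two-sided, Benjamini-Hochberg over 14031 genes, threshold 0.05). SE is the fold change over the root of F. CPM are TMM-scaled, and the smallest level told from 0, 3 counts, was 0.152 to 0.227 CPM. Counting intervals are exact, at 95%, and show counting error alone, because each compares the counts of 2 single livers. They hold no spread between animals. These libraries carry no stated molecular identifiers. Alternatives were DESeq2 1.42.0, limma voom 3.58.1, other scalings and filters, the replicate number as a block and each liver left out. The tests were checked on simulated counts with no outlying liver, so the check does not cover a pattern like that of WT replicate 1. No 2 livers of a group agreed within sampling noise. The members and lists were chosen with earlier results of these data known. Genes outside the members were named by rule: the smallest p of each list, up to 4, among those below 0.05 unadjusted, marker genes, and the 5 nearest profiles to Fos, Jun and Junb. A gene that this rule names is not reported here. Others, such as Atf3, Maff, Egr2, Ccn1, Gadd45a, Btg2, Nr4a1, Srf, Dusp6, Dusp8, Atf2 and Mafg, were named after their values were seen.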

Additional observations from a re-analysis of the deposited data

How the results depend on the processing

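The 10 members gave 0 adjusted calls under all 15 alternatives, and all of them kept a positive fold change for Fos, Fosl2, Junb, Dusp1 and Klf6. Members at an unadjusted p below 0.05 ranged from 0, without TG replicate 1 or 2, to 3, without WT replicate 1. All 10 fold changes were positive with limma voom, with the replicate block and without WT replicate 2, against 6 in the reported fit and 5 without WT replicate 1. The sign of Fosb, Jun, Jund and Ier2 turned with voom (2.33, 0.69, 0.16 and 0.44) and with the replicate block (0.8, 0.51, 0.11 and 0.34). It also turned with library size only for Jund (0.02) and Ier2 (0.11), and with upper quartile scaling for Ier2 (0.01). Over the livers left out, the log2 fold change ranged from -1.06 to 0.58 for Fosb, -0.69 to 0.5 for Jun, -0.52 to 0.32 for Jund, -0.21 to 0.75 for Egr1 and -0.52 to 0.65 for Ier2. The cause was not tested. The labels state no pairing of livers by replicate number, and correlations across genes cannot settle it. Deviations of same-numbered livers correlated at 0.17, -0.24 and 0.12. The same-numbered WT liver was the best match for TG replicates 1 and 3. TG replicate 2 correlated best with WT replicate 1, at 0.11, against 0.1 with WT replicate 3. Over all genes, adjusted calls were 0 in edgeR, 373 in DESeq2, 1 in voom, 0 with the replicate block and 0 to 305 over the livers left out, with 305 without TG replicate 3. The 1551 genes at an unadjusted p below 0.05 became 759 without TG replicate 2 and 2328 without WT replicate 3. The 7 gene lists around the members, from other bZIP genes to AP-1 targets, held 13, 40, 12, 24, 16, 15 and 15 tested genes. In them DESeq2 called 7 genes, against 2.71% of all genes to which it gave an adjusted p. By edgeR 0 to 4 were called over the livers left out. There, list genes at an unadjusted p below 0.05 numbered 14 (without TG replicate 1 or 2) to 30 (without TG replicate 3). With all livers they numbered 25, where 11.1% of all genes were at that level. The SE of the members' log2 fold changes lay between 0.27 (Fosl2) and 1.43 (Fosb).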
